A study of Mus musculus with 10 samples.

Results

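The proteasome subunit genes, whose symbols begin with Psma to Psmg followed by a digit, were compared between desmin knock-out and wild-type skeletal muscle. Of 54232 genes in the table, 50 protein-coding genes had such a symbol, and 48 of them reached a mean value of log2(10) or more over all mice and were used, out of 14289 genes that did so. Psma8, a testis form of an alpha subunit with a mean of 0.72, and Psmb11, the thymus-specific beta subunit listed at 0, did not reach it. RNA came from the gastrocnemius, a calf muscle that the study elsewhere gives together with the plantaris, of 5 homozygous desmin knock-out mice (Des -/-) and 5 wild-type littermates (Des wt/wt). Both groups carried the strain label B6J.129Sv-Destm1Cba/Cscl, were 3 months old and lived under the same housing. The allele is a germline one, so desmin was missing in every cell type and throughout life. The methods speak of pooled RNA, but the table holds a separate value per mouse, and mice were taken as replicates. The values are rlog, a log2 scale that is adjusted for library size and draws each gene towards its own mean, so differences are smaller than log2 fold changes of counts.

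The proteasome degrades proteins that carry ubiquitin chains. Its barrel-shaped 20S core is built of outer alpha rings and inner beta rings, and 3 of the beta subunits cut peptides. The 19S regulatory particle binds the ubiquitin chain, removes it and unfolds the substrate with a ring of ATPases. Under interferon the catalytic beta subunits can be replaced by those of the immunoproteasome, encoded by Psmb8, Psmb9 and Psmb10, which favours peptides for MHC class I. In skeletal muscle the ubiquitin-proteasome system is best known for the breakdown of myofibrillar proteins during atrophy. Desmin itself, the muscle intermediate filament protein, is one of its substrates.

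Des, the deleted gene, checks the labels. It lay between 11.76 and 11.89 in the knock-out mice and between 16.10 and 17.74 in the wild-type mice, a difference of -4.73 (limma, adjusted p = 1.5e-07). All 10 skeletal muscle markers were abundant, with mean values of 16.85 to 20.23. Wild-type mouse 3 stood apart from the other mice. It was the highest of the 10 mice for 38 of the 48 proteasome genes, compared with 28.7% of all tested genes, and for the proteasome genes described one by one the difference without it is given where it moved by over 1.5 times or changed direction.

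None of the 48 proteasome genes was higher or lower in desmin knock-out muscle at an adjusted p under 0.05 (limma, Benjamini-Hochberg over all tested genes), while 13.7% of all tested genes were, 7.7% higher and 5.99% lower. At an unadjusted p under 0.05 there were 2 of them, Psmd1 and Psme4, both lower in the knock-out mice, compared with 27.6% of all genes. Other settings gave other counts. With a weight for each mouse, 9 of the 48 passed, compared with 29.5% of all genes, and these were 7 higher and 2 lower genes, compared with 14.6% and 14.9%. Without wild-type mouse 3, Psmg4 passed as higher, where 17.4% of all genes passed and 9.34% were higher, and 9 of the 48 had an unadjusted p under 0.05, where 29.7% of all genes did. Psmb10 passed as higher with the covariate of Y-linked transcripts (7.94% of all genes higher) and after removal of each mouse's trends on GC content and length (9.66%). Psme4 passed as lower in the latter setting (7.64%), and Psmd1 and Psme4 without wild-type mouse 4 (6.23%). With the replicate number as a block 0 of the 48 passed, compared with 11.1% of all genes. The difference, knock-out minus wild-type, ranged from -0.40 (Psmd1) to 0.31 (Psmg4) with a median of -0.06, beside -0.0029 over all tested genes. It was below 0.25 in size for 46 of the 48 genes and for 65.1% of all genes. For 46 of the 48 genes the 95% interval of the difference lay within -0.58 and 0.58, a change of 1.49-fold on this scale, compared with 67.7% of all genes. The 2 genes with a wider interval were Psmd1 and Psmg4. For none of the 48 genes were the genotypes free of overlap, while they were for 14.4% of all genes. Bulk RNA does not tell whether a lower value comes from fewer cells of a type or from less RNA per cell.

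**Figure D1:**
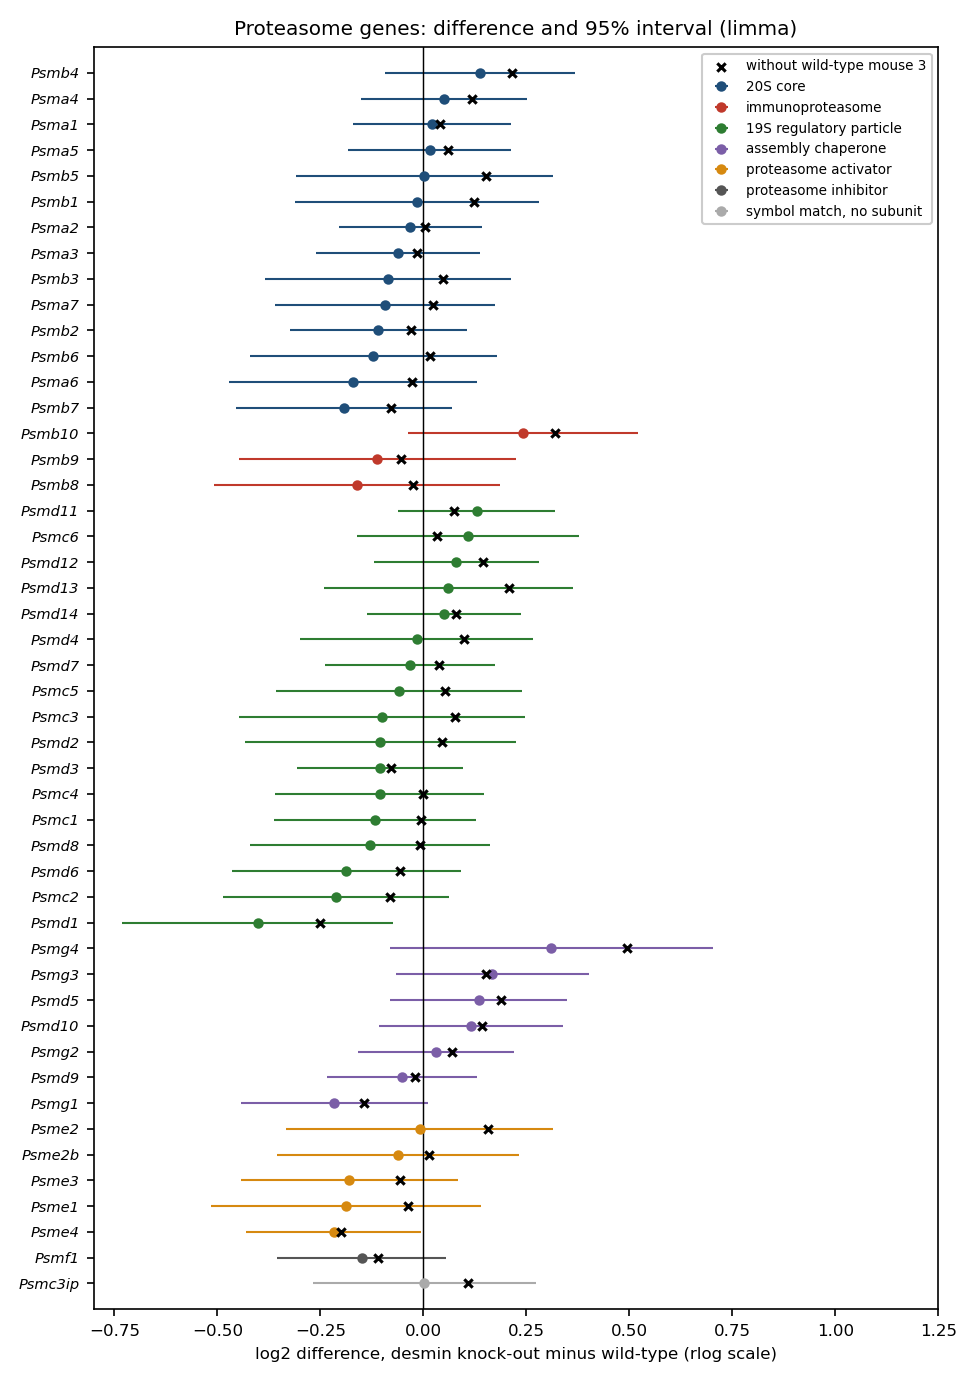
Difference in rlog value (log2 scale, desmin knock-out minus wild-type) of each of the 48 proteasome genes as a point with its 95% interval from limma, coloured by class, and as a cross without wild-type mouse 3. The differences lie between -0.40 and 0.31, and only the intervals of Psmd1 and Psme4 leave out 0.

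The direction of the small differences depended on wild-type mouse 3. With all mice, 17 genes had a higher and 31 a lower mean in the knock-out group, and without it 29 were higher and 19 lower, with a median of 0.036. This mouse exceeded the mean of the other wild-type mice by a median of 0.46 over the 48 genes, compared with 7.8e-05 over all tested genes. Relative to the wild-type mean, the median proteasome gene lay at 0.37 in this mouse, between -0.14 and -0.022 in the other wild-type mice and between -0.10 and 0.017 in the knock-out mice. The median SD of a proteasome gene was 0.0915 in knock-out and 0.254 in wild-type mice, and 0.113 in wild-type mice without mouse 3. Over all tested genes these were 0.127, 0.246 and 0.178. Psmc6 and Psmd11 went the other way and were lowest in this mouse.

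**Figure D2:**
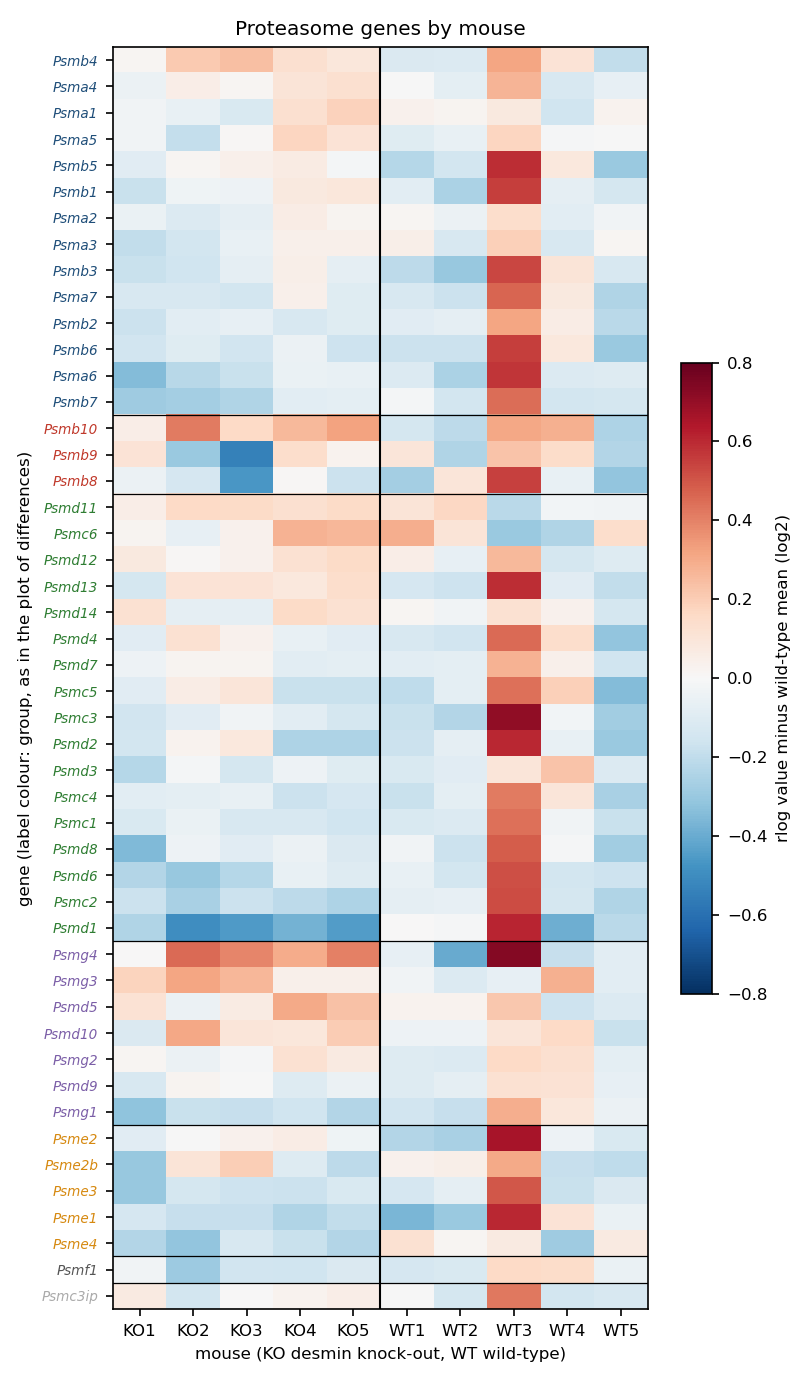
Heat map of the 48 proteasome genes (lines, label colour and order by class) in the 10 mice (columns, KO desmin knock-out and WT wild-type), with colour for the rlog value minus the wild-type mean of the gene (log2 scale, red higher and blue lower). Wild-type mouse 3 has a median of 0.37 over the 48 genes, and the medians of the other 9 mice lie between -0.14 and 0.017.

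The excess in wild-type mouse 3 moved with base composition. Over the 48 genes its gap to the other wild-type mice correlated with the GC content of the longest transcript with Spearman's rho = 0.50 and Pearson's r = 0.55, and over 14277 tested genes with rho = 0.41 and r = 0.41. These correlations are across genes of the same libraries and are descriptions only. Psmc6 and Psmd11, with a GC content of 37.0% and 39.9%, had gaps of -0.37 and -0.27. Psmg4, with 55.1%, had a gap of 0.92. The skeletal muscle markers moved in the same mouse, which was highest for 8 of 10 of them with a median gap of 0.93. The part of base composition or muscle RNA in the proteasome values of this mouse was not tested.

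**Figure D3:**
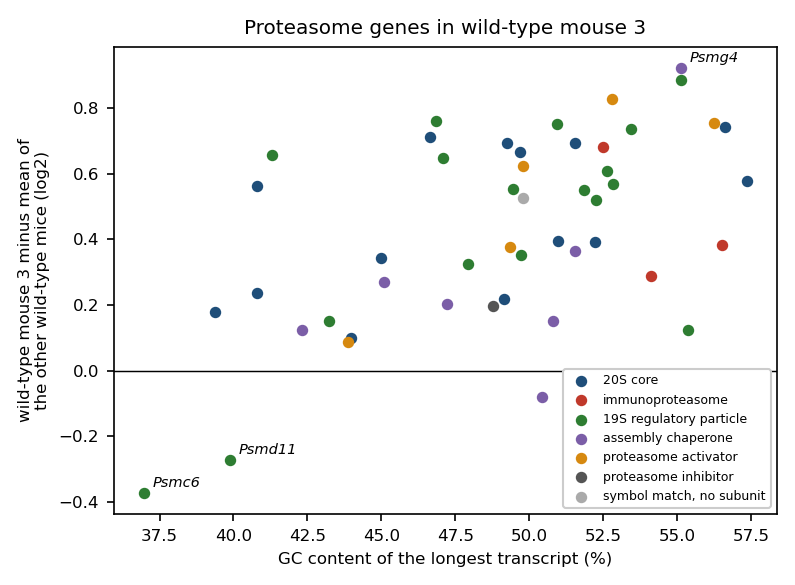
Gap of wild-type mouse 3 to the mean of the other wild-type mice (log2 scale) against the GC content of the longest transcript (percent), a point for each of the 48 proteasome genes coloured by class. Spearman's rho is 0.50, and Psmc6 and Psmd11 lie at the lower left with gaps of -0.37 and -0.27.

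The immunoproteasome genes are described first, with the sequence before their starts. RefSeq windows from 250 bases before to 50 bases after the start (GRCm38.p6) were found for 41 of the 48 genes and are printed for Psmb8, Psmb9 and Psmb10, whose levels are compared below with those of an interferon target. They are given 5′ to 3′ on the strand of the gene. Capitals mark TTCNNNGAA, the gamma-activated site of genes that respond to interferon gamma, and the core of the interferon-stimulated response element, which is GAAA, any 2 bases and GAAA again. All motifs were searched on both strands with no mismatch. The window of Psmb8 lies at chr17:34197945-34198244 on the plus strand, that of Psmb9 at chr17:34187281-34187580 on the minus strand and that of Psmb10 at chr8:105938343-105938642 on the minus strand. The window of Isg15, at chr4:156200769-156201068 on the minus strand, is shown beside them as that of an interferon-stimulated gene which rose in knock-out muscle.
Psmb8: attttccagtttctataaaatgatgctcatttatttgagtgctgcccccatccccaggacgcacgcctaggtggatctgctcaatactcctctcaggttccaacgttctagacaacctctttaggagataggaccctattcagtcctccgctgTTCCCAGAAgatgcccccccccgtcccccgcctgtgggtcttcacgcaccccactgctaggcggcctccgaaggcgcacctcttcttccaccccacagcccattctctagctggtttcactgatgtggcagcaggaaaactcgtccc
Psmb9: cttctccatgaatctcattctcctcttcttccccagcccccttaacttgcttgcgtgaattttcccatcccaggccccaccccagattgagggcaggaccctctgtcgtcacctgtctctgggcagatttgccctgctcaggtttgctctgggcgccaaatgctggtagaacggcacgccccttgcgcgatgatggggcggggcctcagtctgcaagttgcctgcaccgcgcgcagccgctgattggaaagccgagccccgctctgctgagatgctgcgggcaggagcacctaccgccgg
Psmb10: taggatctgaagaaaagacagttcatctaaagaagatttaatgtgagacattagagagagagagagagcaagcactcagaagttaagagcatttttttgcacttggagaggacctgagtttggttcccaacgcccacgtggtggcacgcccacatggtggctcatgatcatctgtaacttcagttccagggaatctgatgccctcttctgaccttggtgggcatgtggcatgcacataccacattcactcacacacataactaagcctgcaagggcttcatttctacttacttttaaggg
Isg15: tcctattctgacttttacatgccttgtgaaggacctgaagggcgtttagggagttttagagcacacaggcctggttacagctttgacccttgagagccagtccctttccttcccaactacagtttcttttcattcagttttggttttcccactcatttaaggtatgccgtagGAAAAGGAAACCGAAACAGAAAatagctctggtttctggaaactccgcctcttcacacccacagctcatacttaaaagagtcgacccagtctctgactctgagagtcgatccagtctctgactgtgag
The window of Psmb8 held 1 gamma-activated site and no interferon-stimulated core, those of Psmb9 and Psmb10 held neither, and that of Isg15 held 3 overlapping matches to the interferon-stimulated core. The start in RefSeq is not the start in GENCODE for Psmb8 (34198195 and 34197721), Psmb9 (34187330 and 34187764) or Psmb10 (105938392 and 105938444). These windows may therefore miss letters close to the other start. Absence of a match refers to these windows alone.

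Over the 41 genes with a window, the interferon-stimulated core was found in 5 (Psmd4, Psmb3, Psmd9, Psmg4 and Psme1), or 12.2%, compared with 3.99% of all 27025 genes with a window. The gamma-activated site was found in 3 (7.32%, all genes 9.55%). TGACNNNGC, the core of the antioxidant response element through which NFE2L1 and NFE2L2 act, was found in 6 (14.6%, all genes 14%), among them Psmb5 and Psmb6. CCAAT, the letters bound by NF-Y, was found in 14 (34.1%, all genes 41.1%). A match is a stretch of letters and was not tested as a binding site.

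Psmb8 (ENSMUSG00000024338, chr17:34197721-34201454), the chymotrypsin-like subunit of the immunoproteasome, had rlog values of 6.95, 6.86, 6.53, 7.0 and 6.82 in knock-out mice 1 to 5 and of 6.73, 7.09, 7.54, 6.94 and 6.68 in wild-type mice 1 to 5. The groups overlapped, with the highest value in wild-type mouse 3. The difference was -0.16 (SE 0.16, adjusted p = 0.553, limma) with a 95% interval from -0.51 to 0.19, and -0.02 without wild-type mouse 3. Psmb9 (ENSMUSG00000096727, chr17:34181987-34187764), the caspase-like position of the immunoproteasome, lay at 5.84, 5.44, 5.2, 5.87 and 5.76 in the knock-out and at 5.83, 5.49, 5.96, 5.88 and 5.50 in the wild-type mice. Knock-out mice 3 and 2 lay below all wild-type mice and the other values were interspersed. Its difference was -0.11 (SE 0.16, adjusted p = 0.681, limma; 95% interval -0.45 to 0.22), and -0.054 without wild-type mouse 3. Exons of Psmb9 overlap those of Tap1 on the opposite strand, and those of Psmb8 overlap Gm20496. The strand setting of the counting is not given, so some of these reads may belong to either gene.

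Psmb10 (ENSMUSG00000031897, chr8:105935735-105938444), the trypsin-like subunit of the immunoproteasome, was the only one of the 3 with a higher knock-out mean. Its values were 8.90, 9.26, 9.01, 9.11 and 9.17 in the knock-out and 8.71, 8.64, 9.16, 9.13 and 8.61 in the wild-type mice. Wild-type mice 3 and 4 reached the knock-out values and the other wild-type mice lay below all of them. The difference was 0.24 (SE 0.13, adjusted p = 0.249, limma) with an interval from -0.04 to 0.52. It passed when mice were weighted (0.42, adjusted p = 8.9e-04), with the Y-linked covariate (0.37, adjusted p = 0.0363) and after removal of GC and length trends (0.33, adjusted p = 0.0128), but not without wild-type mouse 3 (0.32, adjusted p = 0.078). As a class, the 3 immunoproteasome genes had a median difference of -0.11, which was -0.025 without wild-type mouse 3, -0.0050 without knock-out mouse 3 and 0.096 when mice were weighted.

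The constitutive catalytic subunits were far more abundant. Per kilobase of exon, the wild-type mean rlog level of Psmb5 was 11.46 and that of Psmb8, which takes its place, was 5.24. Psmb6 stood at 11.87 and Psmb9 at 3.86. Psmb7 stood at 11.65 and Psmb10 at 8.08, which was the highest of the 3 immunoproteasome genes.

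Psmb5 (ENSMUSG00000022193, chr14:54614119-54618022), the chymotrypsin-like subunit, lay between 11.22 and 11.38 in the knock-out mice, at 11.90 in wild-type mouse 3 and between 11.01 and 11.39 in the other wild-type mice. The group means were 11.31 ± 0.06 and 11.31 ± 0.36 (SD, n = 5 each). The difference was 0.0025 (SE 0.14, adjusted p = 0.994, limma; interval -0.31 to 0.31), and 0.15 without mouse 3. Psmb6 (ENSMUSG00000018286, chr11:70525367-70527858), the caspase-like subunit, lay between 12.61 and 12.72 in the knock-out mice and between 12.47 and 13.33 in the wild-type mice, again with mouse 3 on top. Its difference was -0.12 (SE 0.14, adjusted p = 0.607, limma; interval -0.42 to 0.18) and 0.02 without that mouse. Psmb7 (ENSMUSG00000026750, chr2:38588036-38644087), the trypsin-like subunit, had values of 13.14, 13.15, 13.18, 13.34 and 13.35 in the knock-out and of 13.41, 13.28, 13.88, 13.28 and 13.29 in the wild-type mice. Knock-out mice 1 to 3 lay below all wild-type mice, and knock-out mice 4 and 5 lay among them. The difference was -0.19 (SE 0.12, adjusted p = 0.332, limma; interval -0.45 to 0.07), and -0.080 without wild-type mouse 3. Exons of Psmb7 overlap those of Nek6 on the opposite strand.

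Comparing each immunoproteasome gene with its partner within the same mouse takes out whatever scales both genes alike. Psmb8 minus Psmb5 was -4.48 ± 0.21 in knock-out and -4.32 ± 0.14 in wild-type mice (SD, n = 5 each), a difference of -0.16 with a 95% interval from -0.42 to 0.096 (exact permutation test, two-sided, p = 0.19, adjusted over the 3 pairs 0.286). Psmb9 minus Psmb6 was -7.03 ± 0.29 and -7.04 ± 0.22, a difference of 0.011 with an interval from -0.36 to 0.38 (exact p = 0.976, adjusted 0.976), which was -0.070 without wild-type mouse 3. On the deposited values with all mice, neither ratio differed beyond the spread between mice. The intervals leave room for shifts of the size of their bounds. Psmb8 minus Psmb5 differed by -0.21 after removal of GC and length trends (exact permutation p = 0.0476). Without knock-out mouse 1 it differed by -0.22 (exact p = 0.0317), and neither p was adjusted over the 3 pairs.

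For the trypsin-like pair, Psmb10 minus Psmb7 was -4.24, -3.89, -4.17, -4.23 and -4.18 in the knock-out and -4.70, -4.64, -4.72, -4.14 and -4.68 in the wild-type mice. In 4 of the 5 wild-type mice the value lay below every knock-out mouse, and wild-type mouse 4 lay above all knock-out mice but mouse 2. The difference was 0.43, with an interval from 0.14 to 0.73, and the exact permutation p of 0.0397 became 0.119 after adjustment over the 3 pairs, where the smallest p this design allows is 0.00794. Without wild-type mouse 3 the difference was 0.40 (exact p = 0.0794), and without wild-type mouse 4 it was 0.54 (exact p = 0.0159). After removal of GC and length trends it was 0.62 with all mice (exact p = 0.00794, not adjusted over the 3 pairs). On the deposited values the shift did not pass the corrected test with all mice. It combined the higher mean of Psmb10 with the lower mean of Psmb7, neither of which passed by itself.

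**Figure D4:**
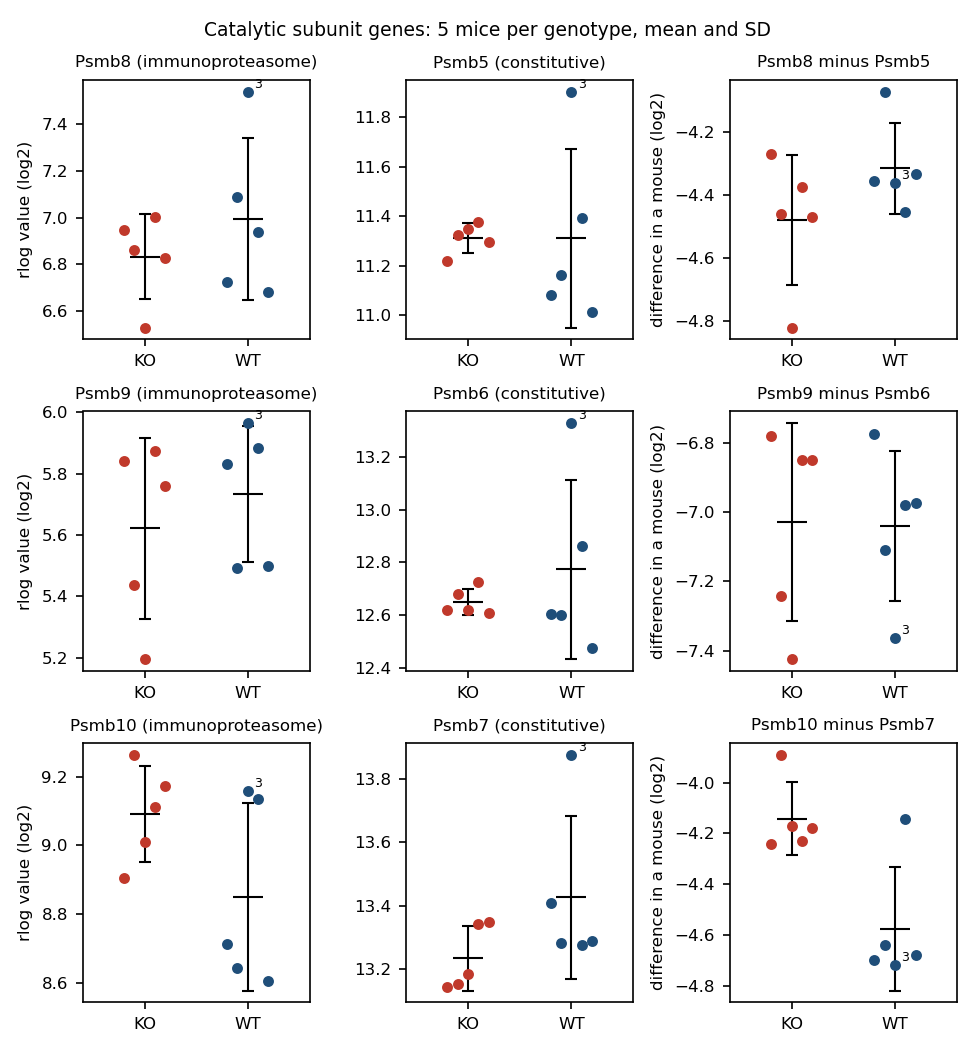
Values of each immunoproteasome gene (left), of its constitutive partner (middle) and of their difference within a mouse (right), all in rlog units (log2 scale) on axes that do not start at 0, with a point per mouse, the mean and the SD of 5 knock-out (KO) and 5 wild-type (WT) mice and a 3 at wild-type mouse 3. In the differences the genotypes overlap for Psmb8 and Psmb9, and for Psmb10 wild-type mouse 4 at -4.14 lies among the knock-out mice.

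The 14 constitutive genes of the 20S core differed by -0.19 to 0.14, with a median of -0.047, and 5 had a higher and 9 a lower mean in knock-out muscle. Without wild-type mouse 3 the median was 0.032, with 10 higher and 4 lower means, and it was also positive with quantile normalization (0.024), the Y-linked covariate (0.042) and weights (0.082). All 14 intervals lay within -0.58 and 0.58. In the alpha ring, whose subunits gate the entry to the core, Psma6 had the lowest difference, -0.17 (adjusted p = 0.458, limma), and Psma4 the highest, 0.05 (adjusted p = 0.765). Without wild-type mouse 3 these were -0.029 and 0.12. Among the non-catalytic beta subunits Psmb2 had the lowest, -0.11 (adjusted p = 0.511), and -0.030 without that mouse. Psmb4 had the highest of the core, with values of 12.67, 12.86, 12.90, 12.78 and 12.74 in the knock-out and 12.54, 12.54, 12.97, 12.76 and 12.46 in the wild-type mice. Wild-type mice 1, 2 and 5 lay below all knock-out mice, while mouse 3 lay above them. The difference was 0.14 (SE 0.11, adjusted p = 0.437, limma) and passed only with sample weights, at 0.23 (adjusted p = 0.0104). Without mouse 3 it was 0.22 (adjusted p = 0.0752). Wild-type mouse 3 was highest for 13 of the 14 core genes.

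The 17 genes of the 19S regulatory particle had a median difference of -0.10, with 5 higher and 12 lower means. Without wild-type mouse 3 the median was 0.038, with 10 higher and 7 lower means, and it was also positive with quantile normalization (0.021), the Y-linked covariate (0.053) and weights (0.015). Of the 6 ATPases of the base, which unfold substrates, Psmc2 was lowest with -0.21 (SE 0.13, adjusted p = 0.304, limma) and Psmc6 highest with 0.11 (SE 0.13, adjusted p = 0.615). Psmd2, a large scaffold of the base that docks shuttle proteins, differed by -0.10 (adjusted p = 0.694), and Psmd4, a ubiquitin receptor, by -0.02 (adjusted p = 0.951). In the lid, Psmd6 was lowest with -0.19 (adjusted p = 0.375) and Psmd11, a scaffold whose level limits the assembly of the whole proteasome in some cells, was highest with 0.13 (adjusted p = 0.37). Leaving out wild-type mouse 3 moved Psmc2 to -0.081, Psmc6 to 0.034, Psmd2 to 0.046, Psmd4 to 0.097, Psmd6 to -0.058 and Psmd11 to 0.075. Psmd14, the metalloprotease that takes off the ubiquitin chain, differed by 0.05 (interval -0.14 to 0.24), and by 0.080 without that mouse.

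Psmd1 (ENSMUSG00000026229, chr1:86064387-86139151), the other large scaffold of the base, had the lowest difference of all 48 genes. Its values were 12.32, 12.06, 12.10, 12.18 and 12.11 in the knock-out and 12.56, 12.55, 13.17, 12.17 and 12.34 in the wild-type mice. Knock-out mice 2, 3 and 5 lay below all wild-type mice, and wild-type mouse 4 lay among the knock-out mice. The difference was -0.40 (SE 0.15, interval -0.73 to -0.07), with an unadjusted p of 0.0201 and an adjusted p of 0.102 (limma). It shrank to -0.25 without wild-type mouse 3 (adjusted p = 0.0742) and passed at -0.50 without wild-type mouse 4 (adjusted p = 0.0428) and at -0.36 with sample weights (adjusted p = 0.00127). Psmd1 is the only proteasome gene on chromosome 1 and lies 10.7 Mb from Des. Its place near the targeted locus and the lack of desmin cannot be told apart. Exons of Psmd1 overlap Htr2b on the opposite and Gm21972 on the same strand.

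The 5 activator genes all had a lower mean in knock-out muscle, with a median difference of -0.18, which was -0.037 without wild-type mouse 3. Psme4 (ENSMUSG00000040850, chr11:30771726-30880361) encodes PA200, an activator that caps the core without ubiquitin. It lay at 13.62, 13.54, 13.72, 13.67 and 13.61 in the knock-out and at 13.97, 13.87, 13.92, 13.57 and 13.92 in the wild-type mice. In 4 of the 5 wild-type mice it was above every knock-out mouse, and wild-type mouse 4 was below all but knock-out mouse 2. The difference was -0.22 (SE 0.10, interval -0.43 to -0.01) with an unadjusted p of 0.0444 and an adjusted p of 0.168 (limma). It passed at -0.29 without wild-type mouse 4 (adjusted p = 0.0385), at -0.26 with sample weights (adjusted p = 0.00513) and at -0.30 after removal of GC and length trends (adjusted p = 0.0495). With quantile normalization it was -0.095 (adjusted p = 0.555). Unlike most of the 48 genes, Psme4 was only 0.089 higher in wild-type mouse 3 than in the other wild-type mice.

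Psme1 and Psme2 encode the alpha and beta subunits of PA28, the interferon-inducible activator that works with the immunoproteasome. Psme1 lay between 10.11 and 10.22 in the knock-out mice and at 9.99, 10.06, 10.96, 10.46 and 10.30 in the wild-type mice, a difference of -0.19 (SE 0.15, adjusted p = 0.451, limma) that was -0.04 without mouse 3. Psme2 lay at 10.15, 10.24, 10.28, 10.30 and 10.21 in the knock-out and at 10.01, 9.99, 10.91, 10.20 and 10.12 in the wild-type mice. Wild-type mouse 3 was above every other mouse for both genes, and the knock-out mice lay close together. The difference of Psme2 was -0.0088 (SE 0.15, adjusted p = 0.978) with all mice and 0.16 (adjusted p = 0.154) without mouse 3, and it passed as higher with sample weights at 0.21 (adjusted p = 0.0347). Exons of Psme1 overlap Emc9 on the opposite strand, and Psme2b, a copy of Psme2 that may share reads with it, differed by -0.06 (adjusted p = 0.804), and by 0.014 without wild-type mouse 3. Psme3, the nuclear activator PA28 gamma, differed by -0.18 (adjusted p = 0.367), and by -0.056 without it.

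Psmf1, the inhibitor PI31, differed by -0.15 (SE 0.10, adjusted p = 0.336, limma; interval -0.36 to 0.06). The 7 chaperone genes, which help to assemble the core or the base, had a median difference of 0.12. Of these, 5 had a higher mean and none passed (limma), with 0 at an unadjusted p under 0.05 (27.6% of all tested genes). When mice were weighted 2 passed, and 1 passed without wild-type mouse 3, where 29.5% and 17.4% of all tested genes did. Psmg4 (ENSMUSG00000071451, chr13:34162964-34178173), which with Psmg3 helps to build the alpha ring, had the highest difference of the 48 genes. Its values were 7.57, 8.02, 7.96, 7.87 and 7.97 in the knock-out and 7.50, 7.17, 8.31, 7.38 and 7.48 in the wild-type mice. All wild-type mice but mouse 3 lay below all knock-out mice, and mouse 3 lay above them all. The difference was 0.31 (SE 0.18, adjusted p = 0.293, limma; interval -0.08 to 0.70), and it passed at 0.49 without mouse 3 (adjusted p = 0.00931) and at 0.53 with sample weights (adjusted p = 0.00125). Without that mouse it was the only one of the 48 genes with no overlap between genotypes, compared with 17.8% of all genes. Its partner Psmg3 differed by 0.17 (adjusted p = 0.345), and Psmg1, which acts with Psmg2 in an earlier step, by -0.22 (adjusted p = 0.202), or -0.14 without that mouse. Psmc3ip, which shares the letters of the symbol but is a recombination factor and no subunit, differed by 0.0022, and by 0.11 without that mouse.

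Factors that bind the proteasome or bring substrates to it are encoded outside these symbols. Of 17 such genes, 4 rose and 1 fell (limma, adjusted p under 0.05), beside 7.7% and 5.99% of all tested genes, with a median difference of 0.09. Pomp, the maturation factor needed for the beta ring, rose by 0.33 (SE 0.09, adjusted p = 0.0333). It lay at 12.42, 12.72, 12.66, 12.60 and 12.55 in the knock-out and at 12.19, 12.19, 12.35, 12.45 and 12.13 in the wild-type mice, where only wild-type mouse 4 overlapped. Akirin2, which carries proteasomes into the nucleus, rose by 0.40 (SE 0.10, adjusted p = 0.0151). Its values were 10.21, 10.59, 10.60, 10.47 and 10.54 in the knock-out mice, and the wild-type mice lay between 9.96 and 10.24, so that only knock-out mouse 1 lay within the wild-type values.

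Txnl1, a thioredoxin bound to the 19S particle, rose by 0.25 (SE 0.07, adjusted p = 0.04, limma) without overlap. Its values were 11.62, 11.58, 11.65, 11.61 and 11.62 in the knock-out and 11.47, 11.37, 11.28, 11.36 and 11.36 in the wild-type mice. Midn, midnolin, which delivers nuclear proteins to the proteasome without ubiquitin, rose by 0.58 (adjusted p = 0.0422), but by 0.47 without wild-type mouse 3 (adjusted p = 0.0538) and by 0.26 with sample weights (adjusted p = 0.129). Ecpas, the scaffold that is the mammalian form of Ecm29, fell by 0.38 (SE 0.09, adjusted p = 0.015), from 13.59, 13.62, 13.79, 13.43 and 13.60 in the wild-type mice to 13.20, 13.13, 13.36, 13.22 and 13.23 in the knock-out mice. All knock-out mice lay below all wild-type mice for Ecpas. Akirin2 and Ecpas passed at an adjusted p under 0.05 under every alternative, while Pomp, Txnl1 and Midn each lost the call under several, and the count of higher factors fell to 1 when single mice were left out. Adrm1, a ubiquitin receptor of the base, differed by -0.26 (adjusted p = 0.235), or -0.14 without wild-type mouse 3, and Sem1, the small lid subunit whose symbol falls outside the rule, by 0.09 (adjusted p = 0.663), or 0.14 without it.

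None of the 6 ubiquitin and E1 genes passed (limma), with 1 of them at an unadjusted p under 0.05 (27.6% of all tested genes). With sample weights 1 passed (29.5% of all tested genes), which was Uba6, lower at -0.33 (adjusted p = 0.0445, limma). Uba6 was also the 1 gene to pass with the Y-linked covariate, lower at -0.40 (adjusted p = 0.016). Ubb, a polyubiquitin gene, differed by -0.24 (adjusted p = 0.341), and by -0.067 without wild-type mouse 3. None of 13 regulators of subunit transcription and partners of the p97 unfoldase passed either. At an unadjusted p under 0.05 there was 1 (27.6% of all tested genes). With sample weights 0 passed (29.5% of all tested genes), and 1 did with quantile normalization. That gene was Nfe2l1, the transcription factor that raises subunit genes when the proteasome is inhibited. It lay at 15.02, 15.07, 15.01, 14.93 and 14.91 in the knock-out and at 14.80, 14.90, 14.89, 14.56 and 14.66 in the wild-type mice. All knock-out values lay above all wild-type values, with a difference of 0.23 (SE 0.10, adjusted p = 0.167, limma). The difference passed with quantile normalization at 0.32 (adjusted p = 0.0437) and was 0.26 without wild-type mouse 3 (adjusted p = 0.0503). Nfe2l2, its relative in the oxidative stress response, differed by 0.30 (adjusted p = 0.195).

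Among 14 genes of class I peptide loading and the interferon response, 3 rose and none fell, beside 7.7% and 5.99% of all tested genes. Their median difference was 0.13, and 0.047 without wild-type mouse 3. Isg15, a ubiquitin-like modifier, rose by 1.94 (SE 0.20, adjusted p = 2.3e-05, limma), from 5.88, 5.78, 6.16, 6.40 and 6.48 in the wild-type mice to 7.64, 8.56, 8.48, 7.77 and 7.96 in the knock-out mice. Ifit1 rose by 1.94 (SE 0.20, adjusted p = 2.5e-05) and Ifit3 by 0.73 (SE 0.13, adjusted p = 0.00153). These genes differed 3.84-fold, 3.84-fold and 1.66-fold on the rlog scale. The upper bounds of the 95% intervals of Psmb8, Psmb9 and Psmb10 were 0.19, 0.22 and 0.52, and the lower bound of Isg15 was 1.51. Tap1 and Tap2, the peptide transporter encoded beside Psmb9 and Psmb8, differed by 0.03 (adjusted p = 0.939) and 0.10 (adjusted p = 0.634). B2m, the class I light chain, differed by 0.26 (adjusted p = 0.082), and by 0.30 without wild-type mouse 3 (adjusted p = 0.016).

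**Figure D5:**
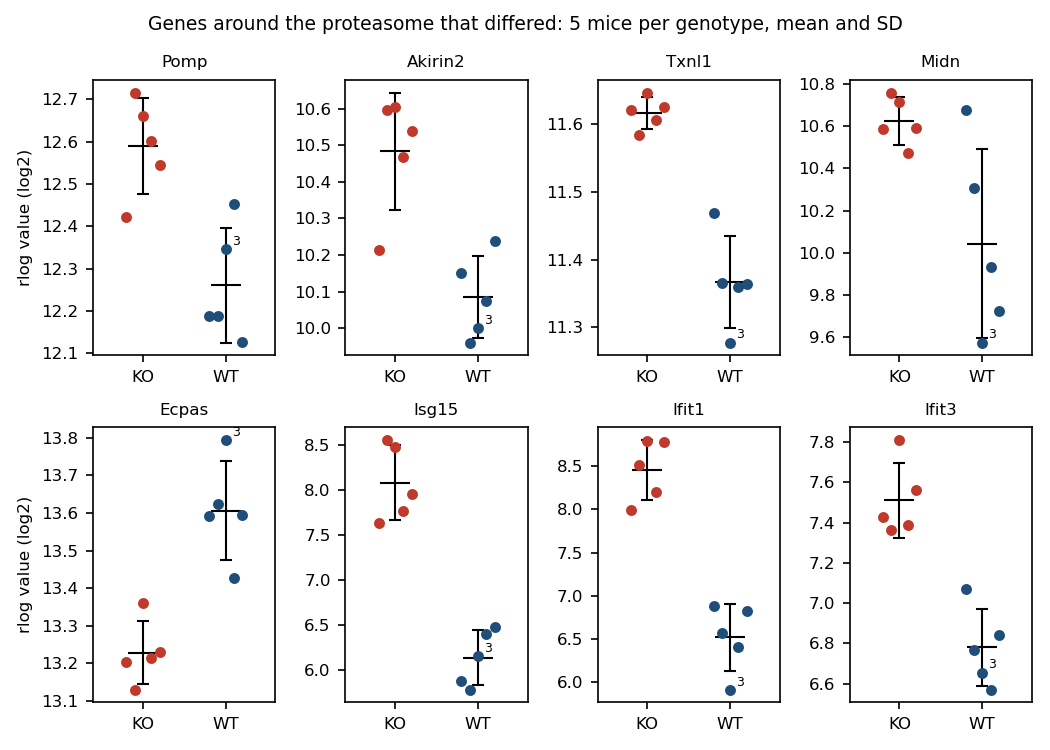
Values in rlog units (log2 scale, axes not starting at 0) of 8 genes of the related lists that differed at an adjusted p under 0.05, with a point per mouse, the mean and the SD of 5 knock-out (KO) and 5 wild-type (WT) mice and a 3 at wild-type mouse 3. Ecpas was lower and the other genes were higher in knock-out mice, and the genotypes overlap for Pomp, Akirin2 and Midn.

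Immune cells carry much immunoproteasome, so their markers are given beside these values. None of 16 leukocyte and macrophage markers passed (limma), with 0 at an unadjusted p under 0.05 (27.6% of all tested genes) and 0 with sample weights (29.5%). The median difference of these markers was -0.036. Their summed level was 2994 to 4220 in knock-out and 3344 to 3940 in wild-type mice on the linear scale. Of 9 T cell markers only Zap70 reached the limit, and it rose by 1.16 (adjusted p = 2.3e-04), while Cd3e and Cd8a lay below 0 on the rlog scale in all mice. Of 7 endothelial markers 4 fell, beside 5.99% of all tested genes, with a median of -0.41. The summed level of the 7 was 3435 to 4774 in knock-out and 4761 to 6300 in wild-type mice. Of 6 fibroblast markers 4 rose, beside 7.7% of all tested genes, with a median of 0.51. The summed level of the 6 was 12983 to 19893 in knock-out and 8772 to 17855 in wild-type mice. Pdgfra and Dcn did not pass, with differences of 0.08 (adjusted p = 0.821, limma) and 0.40 (adjusted p = 0.314). Without wild-type mouse 3, 3 of the endothelial and 3 of the fibroblast markers passed, where 17.4% of all tested genes did and 9.34% were higher. Of 10 skeletal muscle markers 2 had a higher and 8 a lower mean. Myh2 rose by 0.77 and Actn3 and Myh4 fell by 0.97 and 0.71, beside 7.7% and 5.99% of all tested genes. Without wild-type mouse 3, which was highest for 8 of the 10, 4 passed (17.4% of all tested genes). Among them was Myh1, higher by 0.79 (adjusted p = 0.00524, limma). Myh4 did not pass with quantile normalization, at -0.36 (adjusted p = 0.161, limma), or with the Y-linked covariate, at -0.57 (adjusted p = 0.117). The part of these shifts in the proteasome values was not tested.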

How the data were processed

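Libraries were made with a stranded mRNA kit from total RNA of each muscle. According to the submitters' processing notes, reads were treated with cutadapt 2.5, STAR 2.5.4a, Subread 1.6.1, featureCounts and DESeq2 on GRCm38. The annotation release, the strand setting of the counting and the options of the transformation are not given in the sources used here. The values the authors deposited are rlog, a log2 unit, and all 10 sample columns were used. Counts were not used here, so the depth per mouse is unknown and no counting error can be given. A count test as in the study could not be run on such values.

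Of 54232 identifiers, 54079 matched GENCODE M21 (GRCm38), and 26079 were at 0 in all mice. The test was that of limma 3.58.1 (R 4.3.3) on genes whose mean reached log2(10) (prior variance following the mean, two-sided, Benjamini-Hochberg over 14289 genes, threshold 0.05). Ratios of 2 genes were tested with exact permutation tests (scipy 1.17.1). The limma script was tested on simulated data. Levels per kilobase are rlog minus log2 of the exon length.

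The members, gene lists and alternatives were chosen with earlier results of these data known. Named by rule were Des, the 3 immunoproteasome genes and their partners, Psme1, Psme2, members with an adjusted p under 0.05, the lowest and the highest difference of each class, and from each other list at most 4 genes, those with the lowest adjusted p. Psma8, Psmb11, Psmd2, Psmd14, Psme3, Psme2b, Psmg3, Midn, Adrm1, Sem1, Tap1, Tap2, Pdgfra, Dcn and genes named only for a count or motif were added after their values were seen. Of the genes the rule named, 1 is not reported here. Alternatives were sample weights, quantile normalization, median centring, no limit or a limit of log2(50) on expression, a variance prior without trend, 4 averaged Y-linked transcripts as covariate, a replicate block, removal of trends on GC content and length, an adjusted p under 0.01 and each mouse left out in turn. For the other lists they were added later. Mouse numbers carry no stated pairing, and same-numbered mice did not deviate together (correlations between -0.22 and 0.067).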

Additional observations from a re-analysis of the deposited data

Results flagged for a closer look

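In 24 of the 168 groups of 5 mice examined, the highest or lowest mouse lay far from the other 4 by Dixon's test, where chance gives about 8.4. In 14 of them the mouse was wild-type mouse 3, always as the highest. These were the 19S genes Psmc2 (13.19), Psmc1 (13.02), Psmc3 (14.23), Psmd2 (14.33), Psmd6 (13.35) and Psmd13 (12.59), the core genes Psma6 (13.20), Psmb7 (13.88) and Psmb1 (13.25), and the activators Psme3 (11.73) and Psme2 (10.91). Psmc3ip (6.74), Ubb (14.27) and the muscle marker Actn3 (19.34) completed them.

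The other 10 groups had different mice. Knock-out mouse 1 was low for Psmd8 (13.51), Psmd13 (11.86) and Psme3 (10.93), and knock-out mouse 4 was high for Psma7 (12.16). Wild-type mouse 4 was low for Psma1 (11.82) and Psme4 (13.57) and high for Psmg3 (7.91). For Psmb10 minus Psmb7, wild-type mouse 4 (-4.14) and knock-out mouse 2 (-3.89) lay above their groups. Knock-out mouse 3 was low for Col3a1 (11.60).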

How the results depend on the processing

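Median differences of the core, the 19S particle and the immunoproteasome moved by less than the SD between mice under every alternative, an SD that includes wild-type mouse 3. Their direction was not stable, since the core and 19S medians turned positive without that mouse, with sample weights, quantile normalization and the Y-linked covariate, and the immunoproteasome median did with sample weights. The count of 0 higher proteasome genes became 7 with sample weights (Psmd5, Psmb4, Psmd13, Psmb10, Psmb5, Psme2 and Psmg4), 1 with the Y-linked covariate and 1 after removal of GC and length trends (Psmb10 in both), and ranged from 0 to 1 with each mouse left out (Psmg4 without wild-type mouse 3). The count of 0 lower genes became 2 with sample weights (Psmd1 and Psme4) and 1 after removal of GC and length trends (Psme4), and ranged from 0 to 2 (both without wild-type mouse 4). The weights were 0.10 for wild-type mouse 3, 0.275 for wild-type mouse 4 and 4.21 for knock-out mouse 4. Psmb8 minus Psmb5 differed by -0.21 (exact p = 0.0476) after removal of GC and length trends and by -0.22 to -0.078 with a mouse left out, where the lowest value came without knock-out mouse 1 (exact p = 0.0317). With a mouse left out, Psmb9 minus Psmb6 ranged from -0.070 to 0.11 and Psmb10 minus Psmb7 from 0.37 to 0.54. After removal of GC and length trends these differences were 0.031 (exact p = 0.833) and 0.62 (exact p = 0.00794). With the replicate number as a block, Psmb10 minus Psmb7 kept its difference of 0.43 with an exact p of 0.125. With so few pairs of mice, this blocked permutation test could not give a p under 0.05 whatever the values. Its p therefore does not show a weaker difference. The numbers did not pair the mice, and with this block 0 proteasome genes passed. Over all genes, calls went from 1956 to 1579 with the block and to 4220 with sample weights. The number of higher proteasome-bound factors, 4, became 2 with no limit on expression, with median centring or with the block, 0 at an adjusted p under 0.01, and 1 to 3 with a mouse left out, and the 1 lower factor became 2 with sample weights and 0 at an adjusted p under 0.01. Of the class I and interferon genes, 3 or 4 were higher in every setting. Of 531 values of 28 named proteasome genes under 19 alternatives, 477 kept direction and call, 12 passed in the same direction and 42 changed sign. Sign changes were 0.045 (Psma6), 0.055 (Psmb6), 0.096 (Psmb9), 0.095 (Psmd4), 0.036 (Psme1) and 0.21 (Psme2) with sample weights, and 0.043 (Psmb6), -0.048 (Psmc6), 0.13 (Psmd4), 0.064 (Psmd2), 0.024 (Psme1) and 0.18 (Psme2) with the Y-linked covariate. They were -0.039 (Psmc6), -0.010 (Psmd14), 0.030 (Psmd4) and 0.040 (Psme2) after removal of GC and length trends, 0.060 (Psmd4), -0.061 (Psmc3ip) and 0.021 (Psme2) with quantile normalization, and -0.040 (Psmb5) and -0.040 (Psmc3ip) with median centring. With a mouse left out, Psmb5 ranged from -0.072 to 0.15, Psmb6 from -0.20 to 0.016, Psmc3ip from -0.035 to 0.11, Psmd4 from -0.094 to 0.097, Psmd2 from -0.18 to 0.046, Psme2b from -0.13 to 0.014 and Psme2 from -0.073 to 0.16. The causes were not tested. The rlog shrinkage and unknown depth limit low genes such as Psmb9 most.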
